A study of Mus musculus with 60 samples.

Results

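Cytosolic ribosomal proteins are the proteins that, with the ribosomal RNAs, make up the large and small subunits of the ribosome in the cytoplasm. Their genes were picked by symbol: Rpl or Rps followed by a number and at most 1 letter a, x or l, plus Rplp0, Rplp1, Rplp2 and Rpsa, with no hyphen, which leaves out rows named as pseudogenes. This gave 83 of the 54532 genes in the table, 51 named for the large subunit or its stalk and 32 for the small one, spread over 19 chromosomes. GENCODE lists 80 of them as protein coding, Rpl32l and Rpl6l as processed pseudogenes and Rps4l as a transcribed processed pseudogene. The symbol rule misses some genes whose products are also ribosomal, among them Rps3a1, Fau and Rack1, which are described apart.

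The libraries were made from 15 tissues of female C57BL6/J mice aged 6 weeks, with 4 replicates a tissue and 60 libraries in all, to follow immune processes across the organism. The tissues were inguinal and mesenteric lymph node, spleen, thymus, bone marrow and blood, called the immune tissues here, and female reproductive tract, colon, small intestine, skin, lung, kidney, heart, liver and brain. All mice were unmanipulated apart from perfusion with saline and EDTA at collection. The blood samples are labelled whole blood in one field and PBMC (peripheral blood mononuclear cells) in another. The labels do not say that equal replicate numbers mark the same mouse, and p-values measure the spread between these libraries.

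Ribosomal protein genes are among the most actively transcribed in growing cells, and their products are needed in nearly equal numbers, 1 copy of most per ribosome. Many of their mRNAs start with a terminal oligopyrimidine tract, a C followed by further C or T, through which mTOR and LARP1 control their translation. A few members have a paralog that replaces them in some tissues, such as Rpl3l, known from striated muscle, and Rps27l, known as a target of p53. Defects in members such as Rps19 cause Diamond-Blackfan anaemia, in which red cell formation fails.

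Reads came from the 3′ ends of polyadenylated RNA, so a level is a read count scaled to the size of its library by TMM (CPM) and is not divided by length. Libraries held 353605 to 5211133 counts, with a median of 2649668. Of the 83 members, 80 passed the filter on low counts and were tested among 18562 genes, 77 had reads in all 60 libraries and 75 averaged 50 CPM or more over the tissues. Rpl10l had no read, and Rpl24 and Rpl6l were too low to test. Of 30 checks of a marker against its tissue, 27 had that tissue as the highest. The others were Glycam1 for mesenteric lymph node, which was highest in inguinal lymph node, and Ccl21a, listed at 0 everywhere, for both lymph nodes. Female reproductive tract replicate 3 was the shallowest library and the least like its group (median Spearman correlation 0.873). The Paneth cell gene Defa24 was high in brain replicate 3 (394 CPM) and in liver replicate 4 (241 CPM), while the remaining libraries of these tissues held 4.61 to 27.3 CPM. These 3 libraries and reproductive tract replicate 4 are called the 4 libraries in doubt. By the correlation with its group (0.912), that replicate 4 was level with replicate 1. Colon and lung libraries held 0.233% to 0.928% mitochondrial rRNA, and the other 52 libraries 4.33% to 40.6%. For Malat1, a nuclear RNA, the ranges were 0.0151% to 0.0282% and 0.131% to 1.65%. The colon and lung libraries held 750212 to 1202994 counts. The part of these differences in the colon and lung levels given below was not tested.

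The annotated start sites were searched for the oligopyrimidine letters, since this is the feature by which these mRNAs are usually grouped. RefSeq promoters (GRCm38.p6) were on hand for 61 of the 83 members. In 14 of the 61 (22.95%), an annotated start was a C followed by at least 4 pyrimidines, against 3.01% of the 27025 genes of the table. Shown 5′ to 3′ are 5 windows of 30 bases, 15 before the start and 15 from it, chosen to set Rps27 beside Rps27l and to give 3 further tracts. Capitals mark the unbroken run of pyrimidines, led by a C, that begins at the annotated start, and a window without capitals has none.
Rps27: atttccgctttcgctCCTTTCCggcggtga
Rps27l: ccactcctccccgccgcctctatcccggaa
Rpl15: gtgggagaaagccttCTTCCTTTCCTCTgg
Rpl35: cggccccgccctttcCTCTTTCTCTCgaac
Rps15a: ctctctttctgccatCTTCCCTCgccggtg
They lie at chr3:90213634-90213663 on the minus strand for Rps27, chr9:66946071-66946100 on the plus strand for Rps27l, chr14:18270972-18271001 on the minus strand for Rpl15, chr2:39005117-39005146 on the minus strand for Rpl35 and chr7:118116133-118116162 on the minus strand for Rps15a, all in GRCm38.p6. Rps27 has a run of 7 and Rpl15, the longest among the members, of 13 pyrimidines. Rps27l has no run at either of its annotated starts, and neither has Rpl3l, but most other members lack one at the annotated base too. Where the run may begin anywhere within 15 bases of the annotated start, 73.8% of the members had one, and 44.1% of all genes. Rpl15 was highest in colon (261 CPM) and Rps15a in inguinal lymph node (1468 CPM). These genes were picked by hand, and the relation of tract to tissue was not tested. Of other letters searched on both strands of the 300-base promoter, ATGGCG was in 31.1% of members and 10.2% of all genes, TATAAA in 11.5% and 15.7%, and GGAA in 100% and 96.5%.

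The set as a whole took very unequal parts of the mRNA pool. As a share of reads on nuclear protein-coding genes, which leaves out the mitochondrial RNAs that differ so much between tissues, the 83 genes made up 12.6% ± 0.59 in inguinal lymph node, 10.9% ± 0.26 in spleen, 9.27% ± 0.77 in mesenteric lymph node and 9.21% ± 0.48 in female reproductive tract (SD, n = 4 each here and below). Blood followed with 8.34% ± 0.31, thymus with 7.87% ± 0.31, colon with 7.85% ± 0.18 and skin with 7.36% ± 0.19. Bone marrow held 5.87% ± 0.13, small intestine 5.66% ± 0.54 and lung 4.88% ± 0.40. The 4 lowest were kidney with 3.43% ± 0.05, heart with 3.06% ± 0.08, liver with 2.56% ± 0.09 and brain with 2.32% ± 0.05. The lymph node share was 5.44 times that of brain. Neighbours in this order overlapped for mesenteric lymph node and reproductive tract, blood and thymus, thymus and colon, bone marrow and small intestine, and small intestine and lung, while the libraries of all other neighbours were separate. Over all counts the order of the ends changed: inguinal lymph node still led with 10.8%, colon had 7.37%, and heart was lowest with 1.33%, under brain with 1.61%. No test was made on this sum. In such tissue samples, fewer cells of a type and less RNA per cell cannot be told apart.

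**Figure D1:**
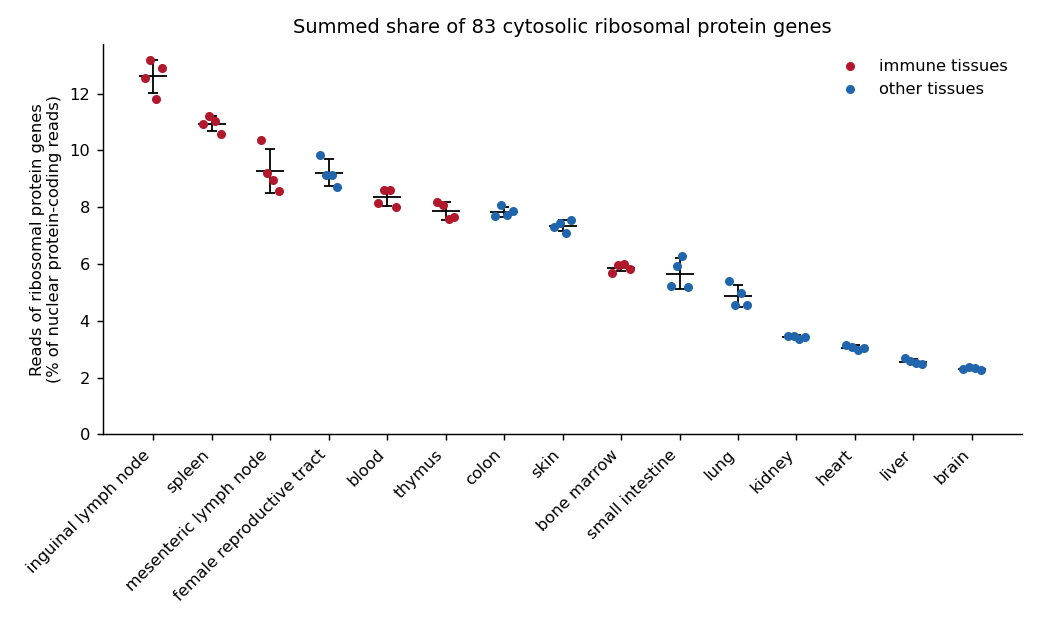
Summed reads of the 83 cytosolic ribosomal protein genes as a percent of reads on nuclear protein-coding genes (vertical axis), per tissue in falling order of the mean. Points are the 4 libraries of a tissue, horizontal marks the mean and bars 1 SD, in red for immune and blue for other tissues; inguinal lymph node (12.6%) and brain (2.32%) stand at the ends.

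Gene by gene, brain was the tissue in which ribosomal protein mRNAs were scarce. Of the 80 tested members, 72 were called lower in brain than in the mean of the other 14 tissues (edgeR's quasi-likelihood test, adjusted p below 0.05 and a change of more than 1 on the log2 scale), where 16.1% of all tested genes were called lower. By adjusted p alone the count was 76, where 28.3% of all genes passed. The median member differed by -1.60 on the log2 scale and the median gene by 0.03. Rplp0, which anchors the acidic stalk of the large subunit, stood at 129.9, 123, 150.2 and 115 CPM in the 4 brain libraries, against 436 to 1464 CPM in the other 56. All 4 brain values lay under every other library, and the log2 difference was -2.76 ± 0.11 (SE, adjusted p = 2.01e-31). Rps19, a small subunit protein, had 165, 163, 162 and 183 CPM in brain, against 265 to 1674 CPM elsewhere (-1.90 ± 0.11, adjusted p = 1.41e-22). Among the 8 members not called lower, Rpl13a, Rpl3, Rpl38 and Rps21 passed the adjusted p but changed by only -0.67, -0.71, -0.96 and -0.97 on the log2 scale. The remaining 4 were Rpl39l, Rpl3l, Rps4l and Rpl32l, and Rpl32l was the single member called higher in brain (where 27.7% of all genes were), at under 5 CPM, a call that ends without brain replicate 3 or 4.

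Inguinal lymph node was the opposite end. There 28 members were called higher, where 17.1% of all tested genes were, and none was called lower, where 6.7% of all genes were. By adjusted p alone 75 members were higher, where 35.3% of all genes were, and the median member stood 0.89 above the other tissues on the log2 scale (all genes 0.05). The largest changes among members of 50 CPM or more were those of Rps19, Rps27 and Rpl12. Rps19 reached 1481, 1517, 1515 and 1674 CPM in the 4 lymph node libraries, against at most 1143 CPM in any other library (1.53 ± 0.08, adjusted p = 1.91e-24). Rps27, a small subunit protein with a zinc finger, had 2462 to 3182 CPM in lymph node, against 289 to 2474 CPM elsewhere (1.51 ± 0.07, adjusted p = 5.82e-26), so its lowest lymph node library overlaps the highest spleen library. Rpl12, part of the large subunit stalk base, had 1319 to 1553 CPM, above all other libraries, which held 153 to 1135 CPM (1.44 ± 0.07, adjusted p = 7.01e-25). The number called higher was 17 with the size factors of DESeq2, where 15.4% of all genes were.

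By the number called lower, kidney and heart came next to brain, although by summed share liver (2.56%) did. A share also depends on the other mRNAs of a tissue. With TMM the median member stood at only -0.40 on the log2 scale in liver, against -0.76 in kidney and -0.61 in heart. With the fold threshold, the kidney count lay near the share of all genes and the heart count under it. In kidney 10 members were called lower, where 9.52% of all genes were, none was called higher, where 21.8% of all genes were, and 72 were lower by adjusted p alone, where 20.4% of all genes were. Rpl12 (-1.41 ± 0.10), Rpsa (-1.28 ± 0.19), Rps24 (-1.16 ± 0.11) and Rps20 (-1.15 ± 0.10) had the largest of these changes. In heart 6 were called lower, where 12.9% of all genes were, 1 higher, where 20.7% of all genes were, and 66 lower by adjusted p alone, where 23.7% of all genes were. The 6 were Rpl3, Rpl12, Rps19, Rpl13a, Rps16 and Rps26, and apart from Rpl3 they lay between -1.08 and -1.02, next to the fold threshold. Kidney had 25 members called lower with the size factors of DESeq2, where 10.4% of all genes were, and 19 without the 4 libraries in doubt, where 9.01% of all genes were.

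Few members passed the fold threshold in the other 11 tissues, and most that did were paralogs or pseudogenes. Spleen had 3 members called higher and 1 lower, where 17.8% and 9.16% of all genes were, although 72 were higher by adjusted p alone, where 33.6% of all genes were. Mesenteric lymph node had 1 higher and 2 lower, where 17.2% and 4.58% of all genes were, and thymus 1 and 1, where 18.9% and 12.1% of all genes were. For blood the counts were 3 higher and 2 lower, where 18.1% and 17.8% of all genes were called. Bone marrow had 1 in each direction, where 17.6% and 16.1% of all genes were. In liver 3 members were higher and 1 lower, where 18.4% and 16.7% of all genes were, and the 3 were all paralogs or pseudogenes (Rps27l, Rps4l, Rpl3l). Small intestine had 3 higher and 0 lower, where 19.9% and 8.5% of all genes were. Colon had 1 higher, Rps27l, and 0 lower, where 17.7% and 14.4% of all genes were. Skin had 2 higher, Rpl3l and Rpl39l, and 0 lower, where 18.4% and 6.38% of all genes were. Lung had 2 higher, Rpl3l and Rps4l, and 0 lower, where 16.8% and 12.3% of all genes were. In female reproductive tract 2 were higher, Rpsa and Rplp1, and 0 lower, where 23.1% and 5.31% of all genes were. Over all 15 tissues, 883 of the 1200 tests of members passed the adjusted p alone (73.6%), where 54.5% of the tests of all genes did.

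Scaling by library totals in place of TMM moved the median of all genes to -1.38 in heart and -1.22 in liver, against -0.12 and -0.25 with TMM, and the counts moved with it. With library totals, 76 members were called lower in heart, where 45.4% of all genes were, 70 in liver, where 40.3% of all genes were, and 61 in kidney, where 15.7% of all genes were. Likewise 64 were called higher in inguinal lymph node, where 26% of all genes were, and 39 in spleen, where 26.2% of all genes were. Relative to the median gene, the median member stood at -1.63 in brain under each of 3 scalings (TMM, DESeq2 size factors and library totals), at 0.84 to 0.85 in inguinal lymph node, at -0.81 to -0.80 in kidney, at -0.59 to -0.49 in heart and at 0.63 to 0.64 in spleen. In liver it stood at only -0.23 to -0.15. Colon had 0.55 to 0.56, blood 0.53 to 0.54, bone marrow 0.46, skin 0.38, mesenteric lymph node 0.28 to 0.30 and small intestine 0.27. In lung the median member stood at -0.32 with TMM and at 0.04 with library totals, but at -0.09 relative to the median gene under all 3. The relative value stayed close to 0 in female reproductive tract (0.05 to 0.07) and thymus (0.06 to 0.07). A change of scaling shifts all genes of a comparison nearly alike, so these relative values could hardly move. Their steadiness is therefore no check on the scaling.

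**Figure D2:**
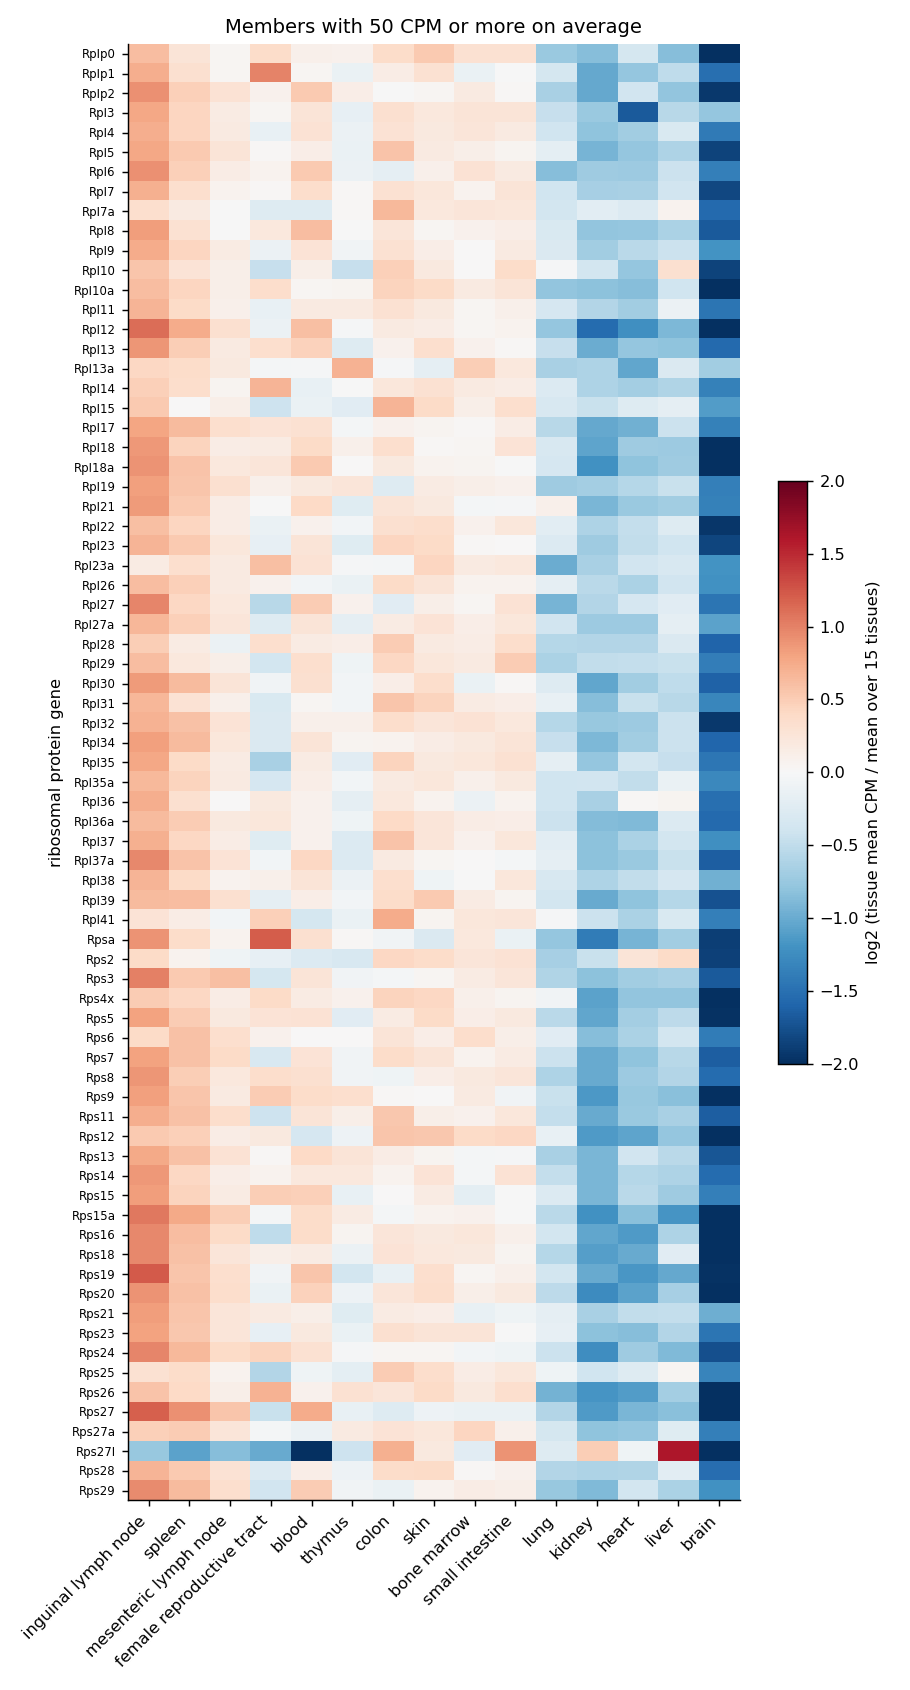
Level of 74 of the 75 members with 50 CPM or more (rows: stalk proteins, large subunit, small subunit) in the 15 tissues (columns, in the order of the summed share), as log2 of the tissue mean CPM over the mean of the 15 tissues, with the colour scale ending at 2 in both directions. Inguinal lymph node is highest for most rows and brain lowest for all but 2, while Rps27l is highest in liver and Rpl3 lowest in heart.

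Among the 75 members with 50 CPM or more, inguinal lymph node had the highest mean for 59, colon for 7, female reproductive tract for 5, spleen for 2, and thymus (Rpl13a) and liver (Rps27l) for 1 each. The 5 of reproductive tract lean on libraries in doubt. For Rpsa, Rplp1, Rps26 and Rpl14, replicates 3 and 4 there stood above replicates 1 and 2 (Rps26: 889, 858, 1182 and 1864 CPM in replicates 1 to 4). For Rpl23a, replicate 3 was highest (260 CPM) and replicate 4 lowest (47.6 CPM). Brain had the lowest mean for 73 and heart for the other 2, Rpl3 and Rpl13a. The highest tissue exceeded the lowest by 3.11 to 10.3 times in the 74 members other than Rps27l, with a median over all 75 of 5.31 times. Rps27l varied most over the tissue means, with a coefficient of variation of 0.753. Across the 15 tissue means, the log2 level of a member correlated with that of the median member at a median Pearson r of 0.956, and 59 of 75 members exceeded 0.9. The lowest values were 0.172 for Rps27l and 0.742 for Rps2. These correlations share libraries and scaling and are given as a description.

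Set against the other 9 tissues, the 6 immune tissues were on average richer in ribosomal protein mRNA. This did not hold for each of them. The bone marrow share (5.87%) lay under those of reproductive tract (9.21%), colon (7.85%) and skin (7.36%). In thymus the median member stood 0.06 above the other tissues on the log2 scale, against 0.41 in colon. By adjusted p alone, 76 of 80 members were higher in the mean of the 6 immune tissues than in that of the other 9, where 37.4% of all genes were, and 4 were lower, where 34.1% of all genes were. The median member differed by 0.65 on the log2 scale and the median gene by -0.16. With the fold threshold, 6 members were called higher, where 19.4% of all genes were, and 3 lower, where 19.1% of all genes were. Both counts are smaller shares of the members than those of all genes. Rps27 averaged 1900.4 CPM over immune tissues and 818 CPM over the others, with a log2 difference of 1.23 ± 0.04 (SE, adjusted p = 1.89e-33). Rpl12 (1.15 ± 0.04), Rps15a (1.14 ± 0.04) and Rps16 (1.01 ± 0.06) were the other members of 50 CPM or more. Of these 4, Rps15a alone had separate tissue means, 752 to 1468 CPM in immune tissues, against 162 to 744 CPM in the others. The error of these tests is that between libraries of a tissue, not between tissues, and the number called higher was 9 without colon and lung, where 17% of all genes were, and 56 with library totals, where 28.5% of all genes were.

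The called low-level members were Rps10 and Rpl39l, higher in immune tissues, and Rps4l, Rpl32l and Rpl3l, lower there. For Rpl39l the mean was 0.593 CPM over immune tissues and 0.891 CPM over the others, so the call and the means differ in direction, and no fitted fold is given because 5 of the other tissues were at 0. Leukocyte and B cell markers moved with the contrast. Ptprc, which codes for CD45, averaged 563 to 1169 CPM in the 6 immune tissues, against 4.25 to 52.3 CPM in the other 9. The B cell genes Cd79a and Ms4a1 had 7.30 to 424 CPM and 11.6 to 512 CPM in immune tissues, against 0.126 to 24.8 CPM and 0.157 to 21.6 CPM in the others. Their part in the result was not tested. The 10 genes of the cell division list, from Mki67 to Birc5, were all called higher in immune tissues (median 2.68), where 19.4% of all genes were. In bone marrow the median of that list was 4.51 against the other tissues, and its ribosomal protein share was 5.87%. The part of cell division in the result was not tested.

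Inside the set, few members departed from the others by more than the fold threshold. To ask this, the same test was run with each library scaled to the summed reads of the members, so that a member stands out only when it departs from the others. Over all 15 tissues, 40 of 1200 tests were called, in 9 members, where 35.6% of the tests of all genes were called. By construction, this scaling shifts all other genes against the members and centres the members near 0, so few calls among them were likely. Smaller departures remain: in brain, members of 50 CPM or more ran from -1.15 to 0.94 within the set. For the 75 members of 50 CPM or more, 9 of 1125 tests were called, and these fell in 4 members: Rps27l, Rplp0, Rpl3 and Rpsa. In each tissue between 61 members (female reproductive tract) and all 75 (skin, bone marrow) stayed within 0.5 on the log2 scale of the other tissues. Small subunit genes gave 51.2% ± 0.37 of the members' reads in mesenteric lymph node, the highest, and 46.7% ± 0.20 in brain, the lowest.

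**Figure D3:**
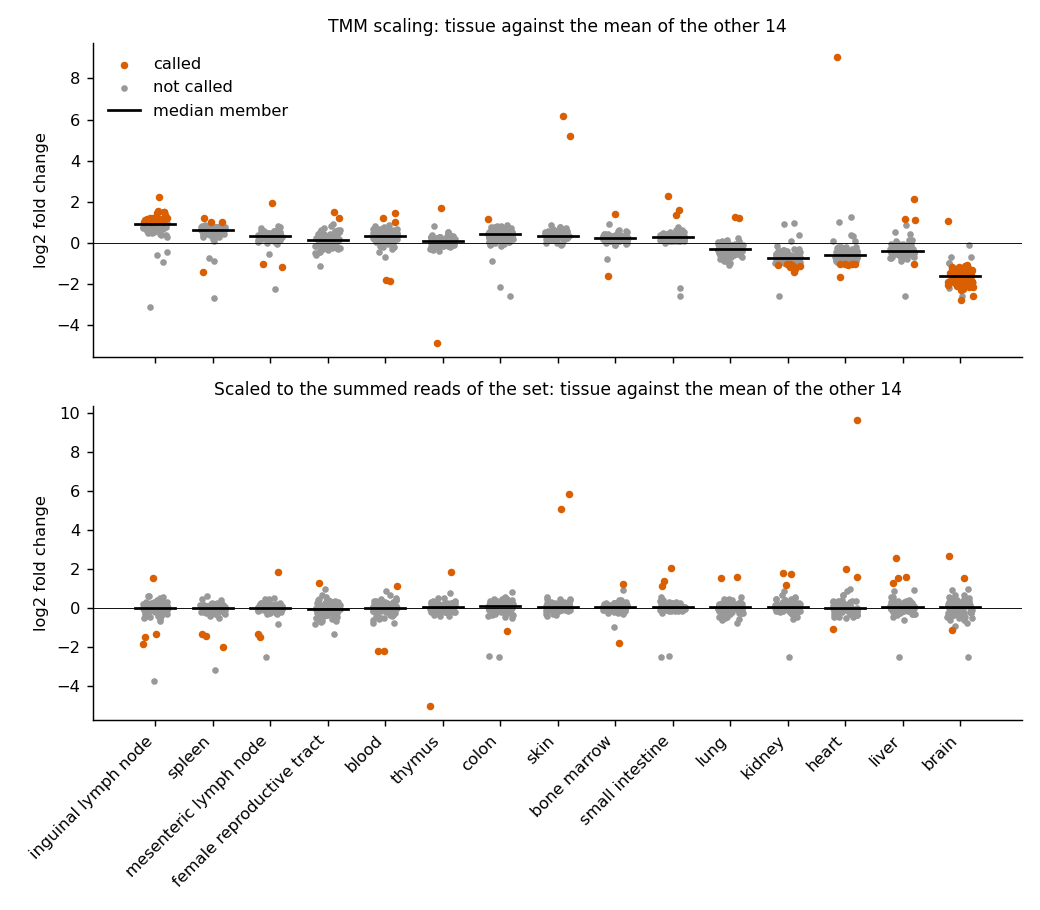
Log2 fold change of each tested member in a tissue against the mean of the other 14 (vertical axes), with TMM scaling (upper panel) and with libraries scaled to the summed reads of the set (lower panel). Orange points passed adjusted p below 0.05 and a change above 1, grey points did not, and bars are medians; the medians of the upper panel run from 0.89 (inguinal lymph node) to -1.60 (brain), while in the lower panel most members lie near 0, and points of Rpl3l and Rpl39l rest on fits with tissues at 0.

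Of the core proteins, Rplp0 departed from the set in brain. Relative to the other members it was lower there by -1.15 ± 0.09 on the log2 scale (adjusted p = 4.64e-18), and its partners in the stalk, Rplp1 and Rplp2, were not called within the set. Without any 1 brain library the value stayed between -1.22 and -1.11. Rpsa, the small subunit protein also known as the laminin receptor, was called in female reproductive tract (1.24 ± 0.14), where the 4 libraries held 800.3, 807, 4199 and 1913 CPM. Replicates 3 and 4 alone were high, and the change was 0.53 without replicate 3, not a call. Without the 4 libraries in doubt it was 0.03, also not a call, but these include both high replicates, so this drop was bound to follow. Rplp1 had 2562, 2446, 7640 and 6197 CPM in the same libraries, with the same 2 standing high. Of the oocyte markers, Zp3 had 9.94, 8.38, 10.4 and 5.96 CPM and Gdf9 12.6, 11.4, 2.08 and 10.2 CPM in replicates 1 to 4, and the part of oocytes in these levels was not tested.

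In heart, most reads of the Rpl3 pair came from Rpl3l. Rpl3 is a core protein near the peptidyl transferase centre of the large subunit, and Rpl3l is its paralog of heart and skeletal muscle. Rpl3l had 399, 405, 394 and 364 CPM in the 4 heart libraries, against 57.2, 52.9, 59.9 and 72.3 CPM in skin and at most 5.14 CPM in any library of the other 13 tissues. Heart thus exceeded skin 6.45 times and skin exceeded bone marrow, the next tissue, 21.8 times. Within the set the calls had adjusted p = 1.56e-53 for heart and 5.03e-35 for skin, and no fitted fold is given because the 4 thymus libraries were all at 0. Rpl3 moved the other way: it had 136, 156, 151 and 125 CPM in heart, under every one of the other 56 libraries, which held 252 to 838 CPM (-1.69 ± 0.11 on TMM, adjusted p = 2.78e-21, and -1.13 ± 0.10 within the set, adjusted p = 6.86e-16). Of the reads of the pair, Rpl3l took 73.4% ± 1.35 in heart, 10.3% ± 1.49 in skin and 0.769% ± 0.81 or less in the other tissues. Added together, the pair had 532 ± 31 CPM in heart, inside the range of 267 to 781 CPM of the other tissue means. In skin, Rpl3 was not called.

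Skeletal muscle genes moved with Rpl3l in skin. Myh4, the myosin of fast skeletal fibres, averaged 2830 CPM in skin and was at 0 in all 4 heart libraries, Acta1 averaged 5360 CPM in skin against 425 CPM in heart, and Ckm 595 CPM in skin against 789 CPM in heart. The part of muscle in the skin level of Rpl3l was not tested. The low reads in other tissues were 27 in bone marrow, 21 in blood, 16 in kidney, and 13 each in liver and lung, summed over 4 libraries, and the calls of Rpl3l against the mean of all tissues in blood, bone marrow, liver and lung rest on these. In liver, replicates 3 and 4 held Acta1 at 96.4 and 250.3 CPM, against 1.35 and 2.17 CPM in replicates 1 and 2, and the liver call of Rpl3l ends without replicate 3 or without replicate 4. In lung, Acta1 was at 93.6 CPM in replicate 4 and at most 4.35 CPM in the other 3, while Rpl3l had 4, 0, 5 and 4 reads in replicates 1 to 4. In blood, Acta1 was at 0 in all 4 libraries. The 3′ end of Rpl3l shares no 50-base word with another gene.

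**Figure D4:**
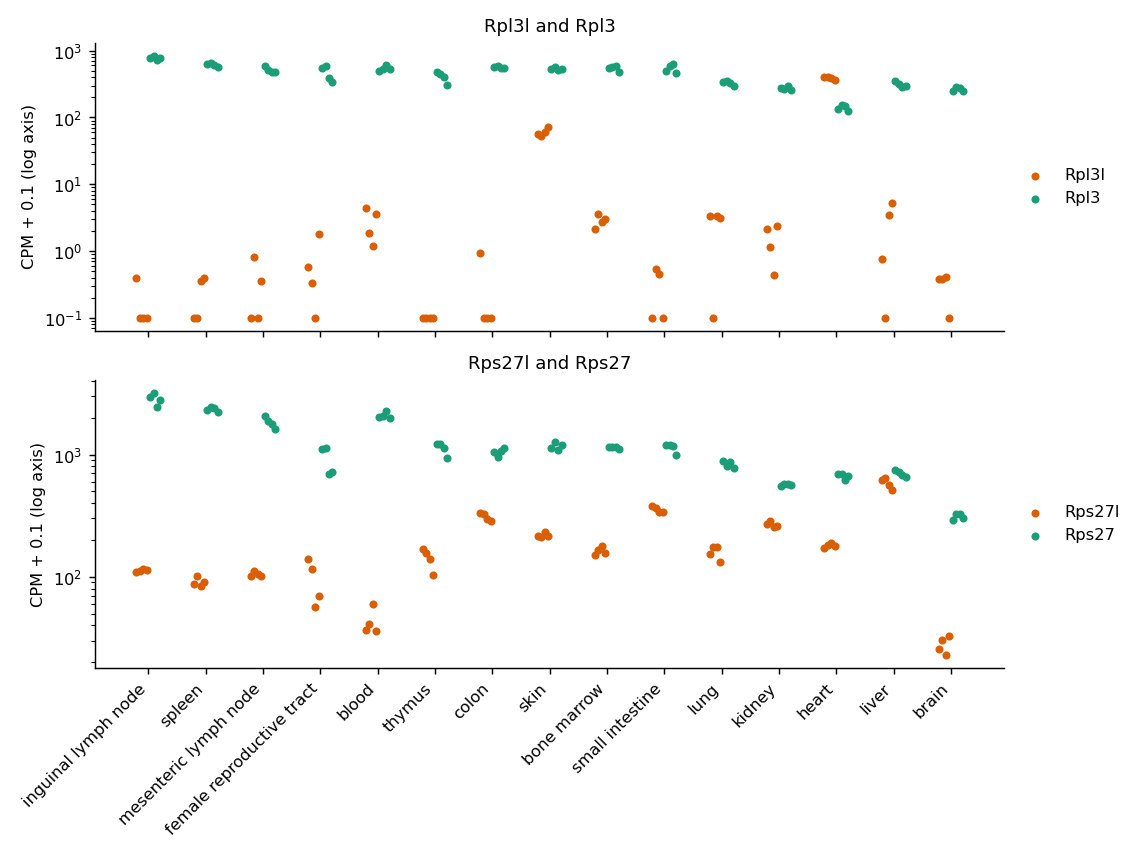
Level in CPM plus 0.1 on a log axis (vertical) of Rpl3l and Rpl3 (upper panel) and of Rps27l and Rps27 (lower panel) in each of the 60 libraries, by tissue in the order of the summed share. Rpl3l exceeds Rpl3 in all 4 heart libraries and in no other, and Rps27l comes nearest to Rps27 in liver.

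Rps27l had a tissue pattern of its own, highest in liver and gut and lowest in brain and blood. Rps27 and Rps27l are near-identical zinc finger proteins of the small subunit. Rps27l had 613, 644, 561 and 515 CPM in liver, all above the other 56 libraries, of which the highest had 378 CPM. Small intestine averaged 356 ± 20 CPM, colon 311 ± 22 CPM, kidney 269 ± 14 CPM and skin 219 ± 9.6 CPM, while blood had 43.5 ± 11.2 CPM and brain 27.8 ± 4.5 CPM. Liver exceeded brain 21.003 times and blood 13.4 times. Relative to the other members, Rps27l rose in liver (2.52 ± 0.08, adjusted p = 8.91e-35), kidney (1.72 ± 0.09) and small intestine (1.12 ± 0.10), and fell in blood (-2.25 ± 0.14, adjusted p = 8.17e-22), spleen (-1.36 ± 0.12) and inguinal lymph node (-1.36). These 6 calls are most of the 9 among members of 50 CPM or more.

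Rps27 itself was highest in inguinal lymph node and lowest in brain, and the share of Rps27l in the reads of the pair differed widely. It was 45.4% in liver, 32.04% in kidney, 23.8% in small intestine, 22.9% in colon and 21.3% in heart, and only 3.81% in inguinal lymph node, 3.71% in spleen and 2.02% in blood. In brain, where both were low, it was 8.23%. These are shares of reads and not of molecules. Part of the 3′ end of Rps27 (63.1% of its 50-base words) also occurs in other genes, among them Rps27rt, and for Rps27l this was 15.96%, so the handling of shared reads, about which the sources used here say nothing, can move the shares.

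The remaining paralogs and pseudogenes within the symbol rule were of low level. Rps4l, set beside Rps4x, had 63.7, 48.8, 46.8 and 58.1 CPM in small intestine, above every other library (at most 35.9 CPM), and rose there within the set (2.05 ± 0.15, adjusted p = 9.74e-19). It fell within the set in blood (-2.22 ± 0.27), spleen (-2.03 ± 0.23), inguinal lymph node (-1.89 ± 0.20), bone marrow (-1.83 ± 0.25) and mesenteric lymph node (-1.35 ± 0.21), where it averaged 3.74 to 6.68 CPM. Its share of the pair was 8.39% in small intestine and 7.52% in brain, and 0.564% in blood. Rpl39l, the paralog of Rpl39, had 8.83, 7.15, 7.15 and 5.67 CPM in skin, against at most 2.29 CPM elsewhere, and gave 3.25% of the pair's reads in skin. Brain, colon, kidney, liver and small intestine had no Rpl39l read, so no fold is given (adjusted p within the set = 1.35e-13 for skin). Rpl10l, known from testis, an organ absent from these females, had no read. Rpl32l averaged at most 4.57 CPM in any tissue, and Rpl6l at most 0.205 CPM. Outside the symbol rule, Rpl22l1 gave 27.9% of the reads of its pair with Rpl22 in brain, against 7.29% to 12.96% in the other tissues. Rpl7l1 gave 21.5% in brain, against 7.72% to 19.2% elsewhere, and Rpl36al at most 3.80%, in liver. In brain, Rpl22l1 stood at 47.3 ± 4.2 CPM, inside the range of the other tissues, while Rpl22 was at its lowest there, 122 CPM.

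A few members had far fewer reads than the rest, and these were ones whose 3′ end another annotated gene overlaps on the same strand. Rpl24, a large subunit protein, had 167 reads over all 60 libraries, and Rps10, a small subunit protein, 976. Of the 76 protein-coding members that are not paralogs, the other 74 had at least 12434. In GENCODE, Gm28037 covers 75% of the last 500 exonic bases of Rpl24 and RPS10-NUDT3 covers 82.2% of those of Rps10, and both of these overlapping genes had 0 reads in the table. The third lowest was Rpl13a with 12434 reads, of which Gm45713, also at 0 reads, covers 27.2%. Only 1 more member, Rpl19, has such an overlap, of 16%. Reads that fall on 2 genes can be left out in counting, but the setting used is unknown from the sources used here, and its part in these counts was not tested. The tissue differences of Rps10 (13.3, 13.97, 11.4 and 12.5 CPM in inguinal lymph node, against 1.68, 0.284, 3.14 and 0.987 CPM in brain) rest on few reads, as does its call in blood within the set (1.09 ± 0.21), which ends without blood replicate 3 (0.96).

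Members whose 3′ end shared most of its 50-base words with other genes had a lower median of reads. In 33 of those 76 members, more than 50% of the 50-base words of the 3′ end also occur in a transcript of another gene, mostly processed pseudogenes, and these members had a median of 73207 reads, against 108954 for the other 43. The 33 include Rpl24 and Rps10, whose 3′ ends an annotated gene overlaps in place, so a shared word need not be a copy elsewhere. The ranges overlapped widely: Rps12 shares 96.9% of its words and had 180953 reads, and Rplp1, the member with most reads (368390), shares 60%. The 298 rows named as ribosomal protein pseudogenes together had 30504 reads, 0.377% of the number of the members. On the opposite strand, Fam69a covers all of the 3′ end of Rpl5, Tbc1d8 84% of that of Rpl31 and Tlcd1 62% of that of Rpl23a. The sources used here name no strand setting, so reads of these pairs cannot be told apart.

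**Figure D5:**
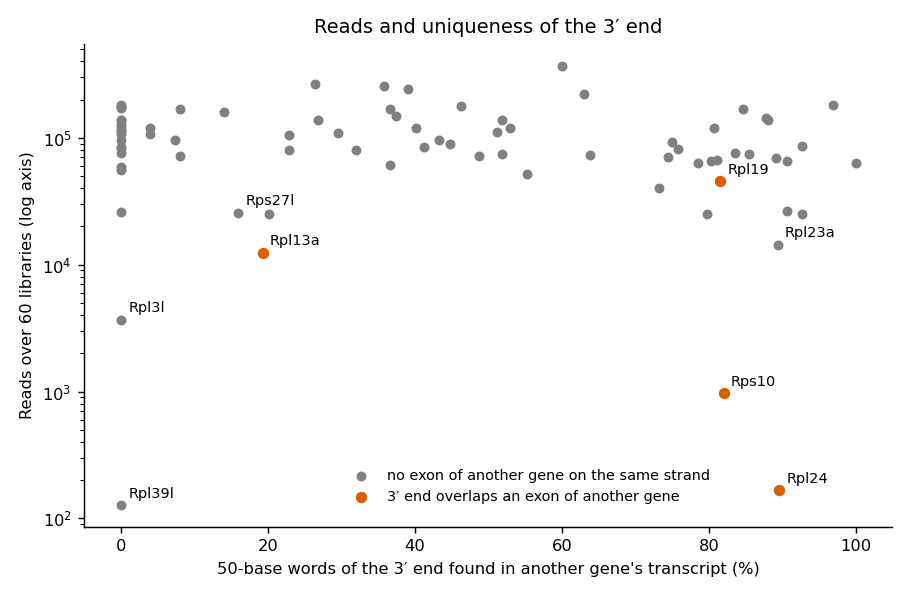
Reads over all 60 libraries on a log axis (vertical) against the percent of 50-base words in the last 500 exonic bases that also occur in a transcript of another gene (horizontal), for the protein-coding members with reads. Orange points are members whose 3′ end overlaps an exon of another gene on the same strand; 3 of these 4 (Rpl24 with 167, Rps10 with 976 and Rpl13a with 12434 reads) lie under all members that are not paralogs.

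Other genes of the ribosome and of translation gave a mixed picture. Of the ribosomal genes missed by the symbol rule, 3 were called lower in brain: Rack1 (-2.42 ± 0.10), Rps3a1 (-1.67 ± 0.10) and Fau (-1.58 ± 0.10). Fau was also called higher in inguinal lymph node (1.14 ± 0.08) and lower in heart (-1.24 ± 0.10). Of the 4 paralogs outside the rule, 2 were called lower in brain, 2 lower in heart and 1 higher in inguinal lymph node. The counts of these lists stand beside 16.1% of all genes called lower and 27.7% higher in brain, 12.9% lower and 20.7% higher in heart, and 6.7% lower and 17.1% higher in inguinal lymph node. Of 18 elongation and initiation factors and other mRNAs with such tracts, 9 fell in brain, among them Tpt1 (-2.05 ± 0.14), Pabpc1 (-1.84 ± 0.10), Eef1b2 (-1.56 ± 0.08) and Btf3 (-1.54 ± 0.12), and 1, Eef1a2, rose, where 16.1% of all genes were lower and 27.7% higher. Eef1a2 is the elongation factor of neurons and muscle: it averaged 301 ± 28 CPM in brain and 672 ± 54 CPM in heart and was at 0 in inguinal lymph node, while the widely expressed Eef1a1 had 193 ± 16, 128 ± 6.1 and 723 ± 147 CPM in these tissues.

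Genes that build the ribosome or control its synthesis gave few calls in these tissues. Of 24 ribosome biogenesis genes, 1 was lower in brain (Fbl, -1.34 ± 0.13), 2 were higher in inguinal lymph node (Nop56, 1.10 ± 0.16, and Rrp9, 1.02 ± 0.10), none was called in heart, and 2 were higher in immune tissues (Nop56 and Dkc1), with a median of 0.55, where 19.4% of all genes were higher. Each of these counts is a smaller share of the list than the share of all genes called. Of 9 genes that control ribosomal protein synthesis, brain had 3 lower and 1 higher, where 16.1% and 27.7% of all genes were. Eif4ebp1 stood at -3.66 ± 0.26 there and Myc, a driver of ribosomal gene transcription, at -3.12 ± 0.33. In heart Eif4ebp1 was called higher (1.86 ± 0.14) and Myc lower (-1.81 ± 0.32), where 20.7% and 12.9% of all genes were. Myc was higher in immune tissues (1.68 ± 0.12), the 1 call of this list there, where 19.4% of all genes were higher. Of the 6 ribosome quality genes, 4 could be tested and none was called in brain, heart, inguinal lymph node or the immune contrast. The mitochondrial ribosomal proteins are part of the ribosomes that translate the few mRNAs of the mitochondrial genome, and of 75 tested, 54 were called higher in heart (median 1.32), where 20.7% of all genes were, and 24 in liver (median 0.73), where 18.4% of all genes were. In inguinal lymph node 1 was lower (median -0.22) and in brain 3 (median -0.22), where 6.7% and 16.1% of all genes were. In immune tissues 10 were lower and none higher, with a median of -0.56, where 19.1% of all genes were lower.

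Outside the rule, the 10 protein-coding genes whose log2 level over the 15 tissue means was most like that of the median member, among 8121 genes of at least 20 CPM, were Rack1 (Pearson r = 0.979), Eef1b2 (0.947), Rps3a1 (0.938), Eif3f (0.934), Fau (0.918), Ikbke (0.918), Nop53 (0.917), Wdr89 (0.908), Zfp217 (0.907) and Irf7 (0.898). Of these, Wdr89 shares 50-base words with the 3′ end of Rplp2, so some of its reads may be those of the member. The values rest on the same libraries and scaling as the members and are a description.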

How the data were processed

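Counts were deposited as whole-number reads per gene and library. Per the submitters' processing notes, FastQC, STAR and featureCounts were used with build mm10; the sources used here give no versions, strand setting or handling of shared reads. Per the labels' protocols, total RNA was fragmented, primed with barcoded oligo(dT), pooled and sequenced, and no molecular identifiers are described. Every value column was used, and no column was left out. GENCODE release 21 gave types and 3′ ends for the 54495 genes matched by ID.

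All 60 libraries were fitted with edgeR 4.0.16 in R 4.3.3 (filterByExpr with a minimum count of 10 and a total of 15, TMM, glmQLFit and glmQLFTest, two-sided, tissue as the only term, Benjamini-Hochberg adjustment over 18562 genes). Each tissue was set against the equally weighted mean of the other 14, and the immune against the other tissues. Calls were made where the adjusted p was under 0.05 and log2 fold changes exceeded 1 in size. The SE was the fold change divided by the square root of F. Within-set fits used the members' summed counts as library size. The procedure was tested on simulated data. Fits that left out 1 library kept the dispersion trend of the whole fit. The alternatives were DESeq2 1.42.0, its size factors, library totals, no filter, adjusted p alone, 2 other within-set scalings, the replicate block, the 4 libraries in doubt left out, and each library left out in turn. Named were all paralogs with their parents, up to 3 members a tissue and direction by size among within-set calls with at least 5 CPM and libraries clear of at least 10 other tissues, the most variable member, the 10 genes most like the median member, and up to 4 genes of each list by size of change. Other members were named after their values were seen, as were the sequences shown and the genes of the 3′ end section. Results for 2 genes are not reported here. The members and lists were chosen with earlier results of these data known.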

Additional observations from a re-analysis of the deposited data

Results flagged for a closer look

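In 51 groups of 4 libraries (the summed share in each tissue, the named calls within the set and the called paralogs and parents), 1 had a library far from the other 3 by Dixon's criterion, and chance alone gives about 1 in 20. It was Rpl3l in lung, where replicate 2 had 0 CPM and the other libraries 3.25, 3.31 and 3.04 CPM, which are 0 reads against 4, 5 and 4.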

How the results depend on the processing

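Counts of called members moved by more than 1.5 times under these alternatives. By adjusted p alone, members higher of 80 (percent of all genes in brackets) were 56 in blood (30.3), 46 in bone marrow (29.9), 56 in colon (27.9), 30 in female reproductive tract (33.9), 4 in heart (31.9), 75 in inguinal lymph node (35.3), 2 in kidney (35.2), 5 in liver (28.7), 56 in mesenteric lymph node (31.7), 62 in skin (29.4), 53 in small intestine (32.8), 72 in spleen (33.6) and 18 in thymus (34.9). Those lower were 4 in blood (28.2), 1 in colon (22.9), 9 in reproductive tract (19.3), 66 in heart (23.7), 2 in inguinal lymph node (18.4), 72 in kidney (20.4), 55 in liver (26.1), 49 in lung (23.7), 2 in spleen (21.8) and 4 in thymus (23.2). With library totals, members higher were 6 in blood (21.5), 11 in colon (24), 9 in reproductive tract (32.5), 64 in inguinal lymph node (26), 1 in liver (9.76), 4 in mesenteric lymph node (24.9), 39 in spleen (26.2), 2 in thymus (29.7) and 56 in immune tissues (28.5), and those lower 76 in heart (45.4), 61 in kidney (15.7), 70 in liver (40.3) and 0 in mesenteric lymph node (2.75). DESeq2 gave 17 higher (14.5) and 2 lower (15.8) in inguinal lymph node, 25 lower in kidney (15.5), 0 higher in mesenteric lymph node (15.8) and thymus (16.5), 1 lower in small intestine (12.6) and 2 lower in spleen (15.7). Its size factors in edgeR gave 17 higher (15.4) and 1 lower (7.92) in inguinal lymph node and 25 lower in kidney (10.4). Without a filter, 1 was lower in mesenteric lymph node (2.35). Without the 4 libraries in doubt, 0 were higher in brain (27.9), 0 in reproductive tract (24.1) and 1 in spleen (18). In that fit 19 were lower in kidney (9.01), and 1 each in inguinal (6.89) and mesenteric lymph node (3.94). Within the set, 0 were called in reproductive tract without these libraries, and median ratio factors gave 2 there.

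Leaving out 1 library at a time gave 0 to 1 higher in brain, kidney, mesenteric lymph node and thymus, 0 to 3 in reproductive tract, 1 to 2 in heart and lung, 0 to 1 lower in inguinal lymph node and 0 to 2 lower in lung and mesenteric lymph node. Within the set it gave 0 to 1 in colon, 0 to 4 in reproductive tract and 1 to 2 in thymus. Brain had 72 lower in each such fit. No share of all genes is given for the fits without 1 library, so their counts show only how far the calls moved. As shares of nuclear protein-coding in place of all counts, the sums are those of the report: 12.6% in inguinal lymph node, 10.9% in spleen, 9.27% in mesenteric lymph node, 9.21% in reproductive tract, 8.34% in blood, 7.87% in thymus, 7.85% in colon, 7.36% in skin, 5.87% in bone marrow, 5.66% in small intestine, 3.43% in kidney, 3.06% in heart, 2.56% in liver and 2.32% in brain. Without the 5 members with most reads, the shares of all counts were 8.85% in inguinal lymph node, 7.25% in spleen, 6.31% in colon, 5.96% in mesenteric lymph node, 5.88% in reproductive tract, 5.54% in blood, 5.37% in thymus, 5.24% in skin, 4.32% in bone marrow, 4.02% in small intestine, 3.95% in lung, 1.75% in kidney, 1.53% in liver, 1.31% in brain and 1.10% in heart. Of 444 alternative values for 48 results on single members, 421 kept direction and side of the threshold, 23 kept direction only and 0 reversed. The cause of these changes was not tested.

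With the replicate number as a block, 28 members were higher in inguinal lymph node, 72 lower in brain and 6 higher in immune tissues, and no count moved by more than 1.5 times. The share of all genes is not given for this fit. The labels do not say that equal numbers share a mouse, and the deviations of equal-numbered libraries, with a median correlation of 0.016 (-0.0057 for different numbers) and over 0.1 in 7 of 420 pairs, did not meet the criterion of over 0.1 in every pair. As a hint from the data, 48 of 60 libraries were nearest to their own number, far more than an even spread over the 4 numbers would give. The main fits take no account of such a pairing. Depth limits Rpl3l outside heart and skin, Rpl39l, Rpl32l, Rpl6l and Rps10.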
